A study of Mus musculus with 4 samples.

Results

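Narrow isolated H3K4me3 peaks at coding promoters are 432 of the 25446 peaks that the authors list as replicated in mouse cerebral cortex. Each was under 500 bases wide, overlapped the window of 1000 bases either side of the start of a protein-coding transcript, and had no other replicated peak within 3000 bases. They made up 2.80% of the 15403 replicated peaks at coding promoters. The peaks were chosen by their measured width, position and isolation in the replicated list, so these values and the enrichment that goes with them are given as a description, with no test.

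H3K4me3, trimethylation of lysine 4 on histone H3, marks nucleosomes at the starts of active and poised genes. SET1 and MLL complexes write it. CpG-rich promoters, which recruit these complexes through proteins that bind unmethylated CpG, usually carry it over a broad stretch around the start. In a tissue of many cell types, the mark at a gene used by few cells is averaged with that of all the other cells.

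The mice were females aged 2 months of B6CASTF1/J, a first-generation cross of C57BL/6J with CAST/EiJ, and the tissue was the left cerebral cortex. The mark was mapped by chromatin immunoprecipitation and sequencing in 4 libraries, 2 technical replicates each of pool I and pool J, and each pool held 4 biosamples. No group was treated or mutated, and all libraries carry the same donor record. The labels do not say that the biosamples came from separate animals, so differences between the pools may be partly technical. The authors deposited 1 peak list for each pool, 1 for the pooled reads and the replicated list, and the read depth behind them is unknown. The lists of the pools and of the pooled reads are labelled pseudoreplicated peaks, so they may have passed another filter than the replicated list. Whether that filter bears on the shares of peaks met by a pool was not tested. The replicated list is not independent of the pool lists, since all were made from the same reads. Markers of the tissue were present: all 18 excitatory neuron markers and all 22 synaptic genes looked up had a replicated peak at a coding start. None of these peaks was narrow and isolated, but these lists are too short to tell that from the share over all coding genes with any peak (3.11%). The upper Wilson limits of the shares were 17.6% for the excitatory neuron markers and 14.9% for the synaptic genes.

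The sequences under 7 of these peaks show how different their base content was. Best2 and AA467197 are shown as single-copy promoters among the highest in enrichment, Tie1 as the peak with the lowest CpG content for its base composition, Tmem119, Cx3cr1 and Aif1 as microglial genes, and Sst as an inhibitory neuron gene. Each line gives up to 300 bases around the highest point, within the peak, 5′ to 3′ along the strand of the gene on the mm10 build, with every CpG dinucleotide in capitals. Best2 lies at chr8:85013413-85013712 (minus strand), AA467197 at chr2:122637786-122638085 (plus), Tie1 at chr4:118489483-118489740 (minus), Tmem119 at chr5:113800164-113800361 (minus), Cx3cr1 at chr9:120067726-120067936 (minus), Aif1 at chr17:35172279-35172578 (minus) and Sst at chr16:23890598-23890814 (minus).
Best2: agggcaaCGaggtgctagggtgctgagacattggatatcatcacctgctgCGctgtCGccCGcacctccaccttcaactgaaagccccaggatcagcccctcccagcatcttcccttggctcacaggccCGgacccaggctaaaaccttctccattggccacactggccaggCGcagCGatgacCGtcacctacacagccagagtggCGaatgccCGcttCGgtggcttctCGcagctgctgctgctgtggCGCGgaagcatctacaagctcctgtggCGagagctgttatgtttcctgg
AA467197: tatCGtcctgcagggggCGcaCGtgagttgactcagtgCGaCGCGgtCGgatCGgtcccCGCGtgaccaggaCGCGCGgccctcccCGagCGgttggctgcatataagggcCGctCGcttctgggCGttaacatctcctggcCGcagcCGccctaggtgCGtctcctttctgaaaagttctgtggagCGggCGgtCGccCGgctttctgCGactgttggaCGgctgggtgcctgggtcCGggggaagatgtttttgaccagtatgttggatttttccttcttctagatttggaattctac
Tie1: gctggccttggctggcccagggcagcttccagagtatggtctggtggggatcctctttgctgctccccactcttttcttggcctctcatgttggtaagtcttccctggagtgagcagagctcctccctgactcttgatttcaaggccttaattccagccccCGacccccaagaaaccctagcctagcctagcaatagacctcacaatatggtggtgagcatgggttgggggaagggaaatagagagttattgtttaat
Tmem119: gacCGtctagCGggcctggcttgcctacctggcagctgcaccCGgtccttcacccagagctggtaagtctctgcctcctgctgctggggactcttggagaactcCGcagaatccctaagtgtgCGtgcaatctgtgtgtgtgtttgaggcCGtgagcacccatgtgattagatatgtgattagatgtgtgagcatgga
Cx3cr1: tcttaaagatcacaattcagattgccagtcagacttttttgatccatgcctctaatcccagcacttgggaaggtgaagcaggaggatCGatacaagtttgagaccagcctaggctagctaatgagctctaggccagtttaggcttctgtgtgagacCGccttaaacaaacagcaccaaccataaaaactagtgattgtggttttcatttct
Aif1: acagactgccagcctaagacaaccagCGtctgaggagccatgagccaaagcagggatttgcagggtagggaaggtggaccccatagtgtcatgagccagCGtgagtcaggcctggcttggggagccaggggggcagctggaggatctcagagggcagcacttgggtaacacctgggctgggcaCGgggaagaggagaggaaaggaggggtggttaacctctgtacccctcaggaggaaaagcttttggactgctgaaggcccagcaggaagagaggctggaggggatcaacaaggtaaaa
Sst: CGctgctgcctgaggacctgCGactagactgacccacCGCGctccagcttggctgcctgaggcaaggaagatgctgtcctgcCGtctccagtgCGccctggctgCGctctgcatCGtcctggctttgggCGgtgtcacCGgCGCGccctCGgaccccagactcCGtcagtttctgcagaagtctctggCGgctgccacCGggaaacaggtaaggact
The stretch of AA467197 held 28 CpG dinucleotides in 300 bases. By contrast, Tie1 had 1 CpG in 258 bases, Cx3cr1 had 2 in 211 bases and Aif1 had 3 in 300 bases. Best2 held 15, Sst 16 and Tmem119 6. In the Cx3cr1 peak 44.1% of the bases were masked as repeat, against a median of 5.06% in the narrow isolated peaks. Best2 also had 2 matches to the CCAAT box (CCAAT, either strand), and AA467197 had 2 matches to the GC box (GGGCGG, either strand).

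The peaks had a median width of 350.5 bases, with quartiles of 278 and 431 and a range of 188 to 498. Isolated coding promoter peaks of 500 bases or more, the 9890 wider isolated peaks, had a median width of 1895 bases. Enrichment is the authors' fold value for a peak. It had a median of 3.45 (1.95 to 12.9) at the narrow isolated peaks, and the median peak stood at percentile 17.2 of the replicated list. The median −log10 q was 5.09, and 20 peaks (4.63%) had a q above 0.05. The nearest other peak lay at a median of 21386.5 bases.

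Just inside the width limit were the peaks at Pld5 (497 bases), Il11 and Spag16 (498 bases each), and just outside it Gm8113, Kbtbd7 and Otof (500 bases each). Just inside the limit of isolation were Selenov (3020 bases to the next peak), Rab19 (3046) and Gm9837 (3090), and just outside it Parp10 (2889), Kremen2 (2951) and Gimap1 (2966). Kbtbd7, at 500 bases, had an enrichment of 13.02, above every narrow isolated peak.

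The highest enrichment was at Best2, which encodes bestrophin-2, a chloride channel of epithelia. Its peak was 480 bases wide with an enrichment of 12.9 in the replicated list, 494 bases with 13.9 in the pool I list and 440 bases with 11.5 in the pool J list. AA467197 had 355 bases and 11.6 in the replicated list, 326 bases and 12.9 in pool I, and 351 bases and 9.49 in pool J. Both stayed under 500 bases in every list. The other peaks of the 8 highest were at Gm3164 (12.1), Rnaset2a (11.6), which encodes a ribonuclease of the T2 family, Mcm10 (9.61), a DNA replication initiation factor, Fhad1 (9.37), Ccdc63 (9.26), an axonemal protein of sperm, and Gm19345 (8.85). Each of the 8 was met (overlapped by at least 1 base) by a peak of both pools, but Fhad1 was 783 bases wide in pool I against 346 in pool J, and Rnaset2a was 418 in pool I against 716 in pool J.

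At the narrow end of the range were Fam118a, St18, a zinc finger transcription factor gene, and Trh, the gene of thyrotropin-releasing hormone, with 188 bases each, then Lipo3 with 189 and Por, the electron donor of cytochrome P450 enzymes, with 193. Of these 5 peaks, Lipo3 was met by a peak of pool I (207 bases) and the other 4 by a peak of neither pool. Their enrichments ran from 2.47 at Por to 3.34 at Lipo3.

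Peaks of both pools, by an overlap of at least 1 base, met 154 of the 432 peaks (35.6%, 95% Wilson interval 31.3 to 40.3, which covers counting error only), against 94.3% of all replicated peaks at coding promoters. Pool I alone met 118 peaks (27.3%), pool J alone met 42 (9.72%), and neither met 118 (27.3%, interval 23.3 to 31.7), against 1.67% of all coding promoter peaks. Pool I therefore met 272 in all (63%) and pool J 196 (45.4%), where the shares of all coding promoter peaks were 97.4% and 95.2%. The pool I list was the longer, with 24508 peaks against 21573 in the pool J list. Of the 118 peaks met by neither pool, 76 (64.4%) were in the list called on pooled reads, while all 154 met by both were. For 386 of the 432 peaks the entry in that list had the same name and bases as in the replicated list. Presence there is therefore not a separate finding of the peak.

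**Figure D1:**
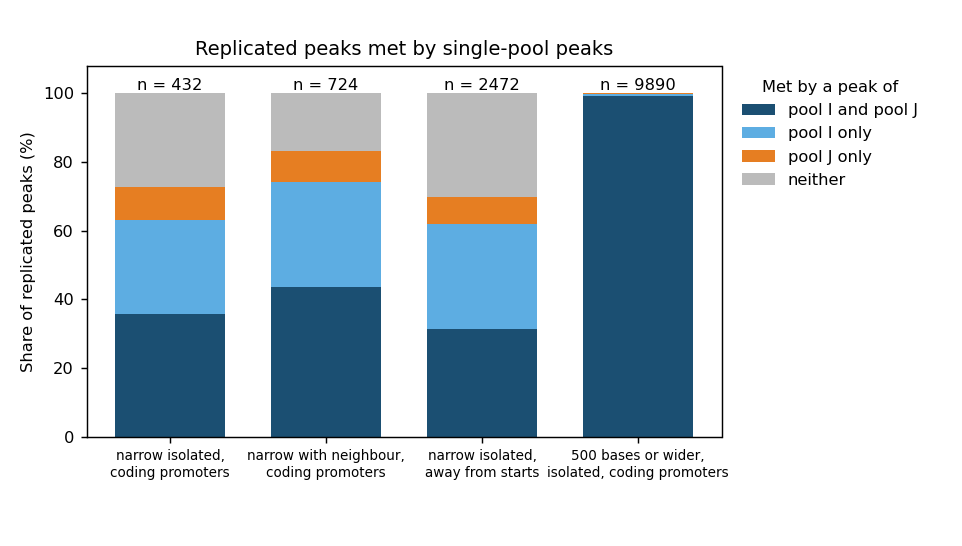
Share of replicated peaks (vertical axis, percent) met by a peak of both pools, of pool I only, of pool J only or of neither, for the narrow isolated peaks at coding promoters (432) and the sets of peaks they were set beside. Among the narrow isolated promoter peaks 35.6% were met by both pools, while among the wider isolated ones 99.0% were.

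Of the wider isolated peaks 99.0% were met by both pools and 0.091% by neither. Narrow promoter peaks that had a neighbour (724) were met by both in 43.6% and by neither in 17%, and narrow isolated peaks away from all annotated starts (2472) in 31.2% and 30.4%. No test was made of these shares, because the lists share their reads and peaks are not replicates of a condition.

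Within the narrow isolated promoter peaks the share met by both pools ran with width and with the authors' q. It was 8.21% (11 of 134) for peaks under 300 bases, 34.0% (49 of 144) for those from 300 to under 400 bases and 61.0% (94 of 154) for those of 400 bases or more. The shares met by neither pool in the same classes were 59.0%, 20.1% and 6.49%. Of the 74 peaks whose −log10 q was 10 or more, 70 (94.6%) were met by both pools, against 16 of 211 (7.58%) of those under 5. Median enrichment was 4.55 for the peaks met by both and 2.83 for those met by neither, and median width was 425.5 and 254.5 bases.

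**Figure D2:**
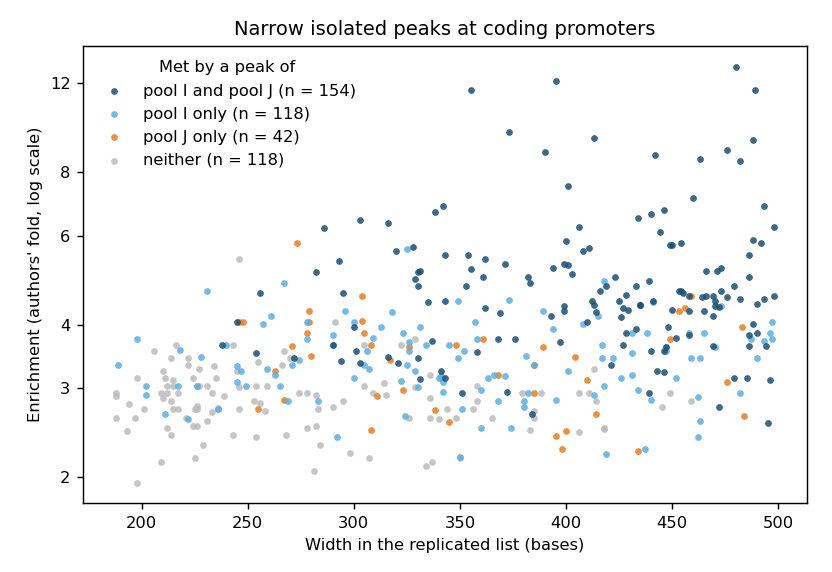
Each point is 1 of the 432 peaks, with its width in the replicated list (horizontal axis, bases) and the authors' enrichment (vertical axis, fold, log scale), coloured by the pools whose peaks met it. Peaks met by neither pool lie mostly at the lower left (median 254.5 bases and 2.83), and those met by both at the upper right (median 425.5 bases and 4.55).

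Where both pools had a peak, its width was a median of 441 bases in pool I and 424.5 bases in pool J, and 81 of the 154 were wider in pool I. In 128 of the 154 (83.1%) the widths lay within 1.5-fold of each other, and 89 peaks were under 500 bases in both pools. A peak of 500 bases or more met 79 of the 272 peaks found in pool I (29.0%) and 32 of the 196 found in pool J (16.3%). Another pool I peak lay within 3000 bases at 16 of the 432 and another pool J peak at 5.

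Among the peaks met by neither pool, Cntfr, the receptor gene of ciliary neurotrophic factor, had the highest enrichment (5.38, 246 bases). It was followed by Pcdha11 (4.05), Gpr146, an orphan receptor gene (3.74), Tlcd2 (3.65) and 4930539E08Rik (3.64). Peaks met by pool I alone were led by Myo1h, an unconventional myosin gene (5.65), Pcdhb12 (4.87) and Gstm7, a glutathione S-transferase gene (4.83). Those met by pool J alone were led by Srp54b, which encodes a subunit of the signal recognition particle (5.79), Gdpd2 (4.56) and Lexm (4.56).

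The highest point of the narrow isolated peaks lay a median of 123 bases downstream of the nearest coding start (quartiles 5.75 and 239), against 159 bases (82 and 248) in the wider isolated peaks. It was downstream in 328 of 432 (75.9%) and in 85.6% of the wider isolated peaks, where 80.5% of all coding promoter peaks had theirs downstream. In the narrow promoter peaks with a neighbour it was downstream in 40.2%. The narrow isolated peaks covered the start itself in 200 cases (46.3%), and the wider ones in 97.5%. Of the 432, 11 had the start of a noncoding transcript nearer to the highest point than the coding start.

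**Figure D3:**
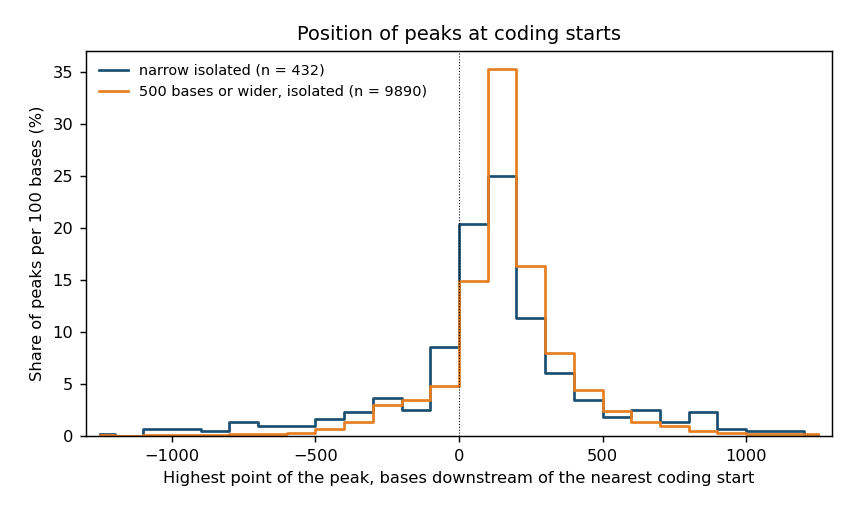
Distance of the highest point of a peak from the nearest coding start (horizontal axis, bases, downstream to the right) against the share of the peaks of each set (vertical axis, percent). The narrow isolated peaks had their median at 123 bases downstream and the wider isolated peaks at 159 bases, and the narrow isolated ones had more of theirs upstream (75.9% against 85.6% downstream).

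The nearest start was the 5′-most of its gene in 225 of 432 (52.1%), against 45.4% of all coding promoter peaks and 44.2% of the wider isolated ones. Among genes with several starts it was the 5′-most in 87 of 294 (29.6%), against 22.8% in the wider isolated peaks. For 95 narrow isolated peaks (22.0%, interval 18.3 to 26.1) a coding start of the same gene met a different replicated peak, against 11.7% of the wider isolated peaks. Over all coding promoter peaks the share was 30.5%, which takes in peaks with a neighbour (96.3% of the narrow ones). Where the narrow isolated peak was at an internal start the share was 37.2% (77 of 207), against 16.3% in wider isolated peaks, and where it was at the 5′-most start it was 8% (18 of 225), against 5.92%. Where several other peaks were met, the widest was taken, so the width of the other peak follows partly from that choice. It had a median of 1978 bases, against 1782 bases in all coding promoter peaks, and 94 of the 95 were 500 bases or more. The median enrichment of the other peak was 18.1, against 3.13 for the narrow peaks and 18.9 for all coding promoter peaks. Its median distance was 24362 bases.

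Pdpk1, which encodes the kinase PDK1 that phosphorylates Akt, had a narrow peak of 463 bases (enrichment 8.49) and another of 2541 bases at a start 10117 bases away. Dock10, a guanine nucleotide exchange factor gene, had 493 bases (6.87) and 1835 bases at a distance of 48952. Enah, a regulator of actin assembly, had 488 bases (5.89) and 3247 bases at a distance of 95897. In pool I the Pdpk1 peak was 854 bases wide and the Dock10 peak 1099, against 437 and 448 in pool J.

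Nfib and Runx2, transcription factor genes, had wide peaks of 9016 and 5610 bases at another start beside narrow ones of 438 and 353 bases. Map1b, a microtubule-associated protein of neurons, had 6004 bases beside 462, and Ppargc1a, a coactivator of mitochondrial genes, had 2577 beside 447. These 4 genes were chosen after their values were seen. The narrow peaks with another marked start had a median CpG ratio of 0.424, against 0.556 for those without.

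The CpG ratio compares the observed number of CpG dinucleotides with the number its C and G content would give. Over the bases of the peak it had a median of 0.510 (quartiles 0.336 and 0.715) at the narrow isolated peaks, against 0.623 at the wider isolated ones, 0.442 at narrow promoter peaks with a neighbour and 0.456 at narrow isolated peaks away from starts. A wide peak takes in flanks of other content, so 300 bases around the highest point were read in all sets. The median ratio was then 0.528 in the narrow isolated peaks and 0.781 in the wider ones. Over 1000 bases either side of the start it was 0.346 and 0.610. The share of C and G in the peak was 58.3% and 54.3%.

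The spread was wide at both ends. A ratio under 0.3 was found in 87 narrow isolated peaks (20.1%), against 3.34% of the wider ones, and a ratio of at least 0.6 in 168 (38.9%), against 56.3%. The highest ratios were at Foxe3, a forkhead gene of the lens (1.18), Lims2, an adaptor gene of cell adhesion (1.11), and Ttc6 (1.10). The lowest were at Tie1, an endothelial receptor tyrosine kinase gene (0.0452), Csf3r, the receptor gene of granulocyte colony-stimulating factor (0.0621), and Cyp4f16, a cytochrome P450 gene (0.0631).

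When all 15403 coding promoter peaks were ordered by the CpG ratio around their start and split into deciles, narrow isolated peaks were 206 of 1541 (13.4%) in the lowest decile, 6.23% in the next and 5 of 1541 (0.324%) in the highest. From the seventh decile upwards no decile exceeded 0.519%. The median ratio around the 5′-most start was 0.610 for marked coding genes and 0.170 for unmarked ones.

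**Figure D4:**
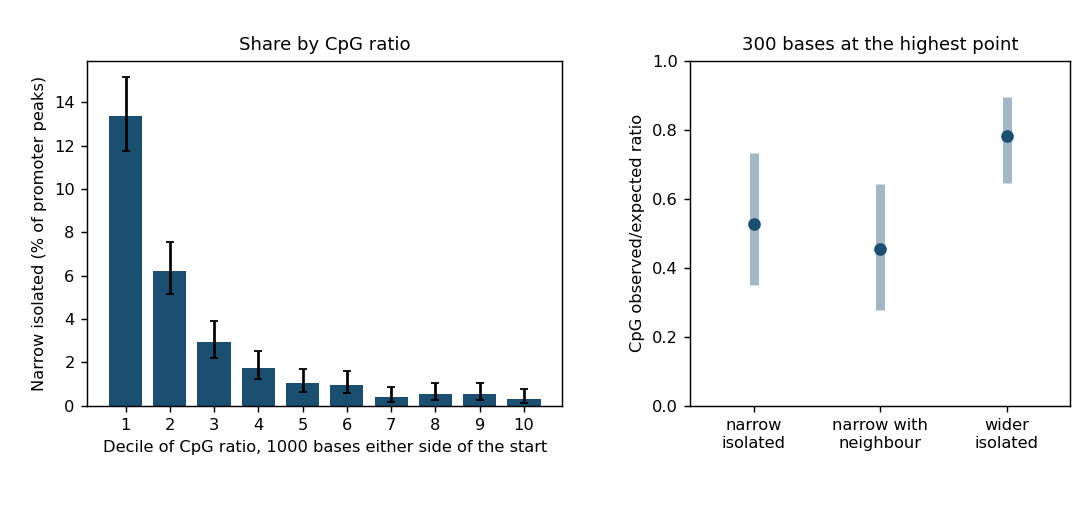
Left, share of narrow isolated peaks (vertical axis, percent of promoter peaks, bars, with 95% Wilson intervals) in each decile of the CpG ratio around the start, over the 15403 coding promoter peaks; it was 13.4% in the lowest decile and 0.324% in the highest. Right, median (point) and quartiles (bar) of the CpG ratio (observed over expected, no unit) in 300 bases at the highest point, 0.528 in narrow isolated peaks, 0.455 in narrow promoter peaks with a neighbour and 0.781 in wider isolated peaks.

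Sequence motifs were counted in the 300 bases around the highest point, on both strands. The GC box (GGGCGG) was found in 35.9% of the narrow isolated peaks, against 50.9% of all coding promoter peaks, and a general ETS site (CCGGAAG) in 3.94% against 7.71%. Narrow promoter peaks with a neighbour held them in 27.3% and 3.59%, and narrow isolated peaks away from starts in 14.8% and 3.64%. The CCAAT box (CCAAT) was in 25% against 17.8%, and the TATA box (TATAAA) in 5.09% against 3.41%. Both shares were higher still in the other narrow peaks: narrow promoter peaks with a neighbour held the CCAAT box in 28.2% and the TATA box in 10.5%, and narrow isolated peaks away from starts in 27.5% and 14%. A PU.1-type site (GAGGAAGT), named for the ETS factor of macrophages, was in 11 peaks (2.55%) against 1.37%. It was in 2.43% of narrow isolated peaks away from starts and in 1.38% of narrow promoter peaks with a neighbour. A canonical E-box (CACGTG) was in 6.94% against 5.54%, and in 7.4% and 7.87% of those 2 sets. A cAMP response element (TGACGTCA) was in 3 peaks (0.694%) against 0.558%. A match is only a run of letters, and matches in wide and narrow peaks lie in sequence of different CpG content, whose part in these shares was not tested.

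Other copies of a promoter in the genome can take reads that belong to it. Stretches at least 90% identical over at least 50% of the window of 1000 bases either side of the highest point were counted. By this measure 31 narrow isolated peaks (7.18%, interval 5.10 to 10) had a copy, against 1.28% of all coding promoter peaks. The share was 1.04% in the wider isolated ones and 3.59% in narrow promoter peaks with a neighbour. Of the 20 highest in enrichment, 3 had one. Gm3164 had 32 copies, the best at 96.5% identity. Rnaset2a had 1 at 96.1%, Zfp955a 1 at 98.7%, and Srp54b and Cntfr had 2 each. The signal at these promoters is uncertain, since reads of the copies cannot be told apart by the peak lists. The median share of bases masked as repeat was 5.06%, against 9.44% in the wider isolated peaks.

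At the level of genes, 438 of 21866 protein-coding genes (2.00%) had a narrow isolated peak at a start, while 64.5% had a replicated peak of any kind. Among the 14103 genes with any peak the share with a narrow isolated one was 3.11%. For 343 genes the narrow isolated peak was the only peak at any coding start. The counts below are over lists of genes, with the number of the list that had a narrow isolated peak.

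**Figure D5:**
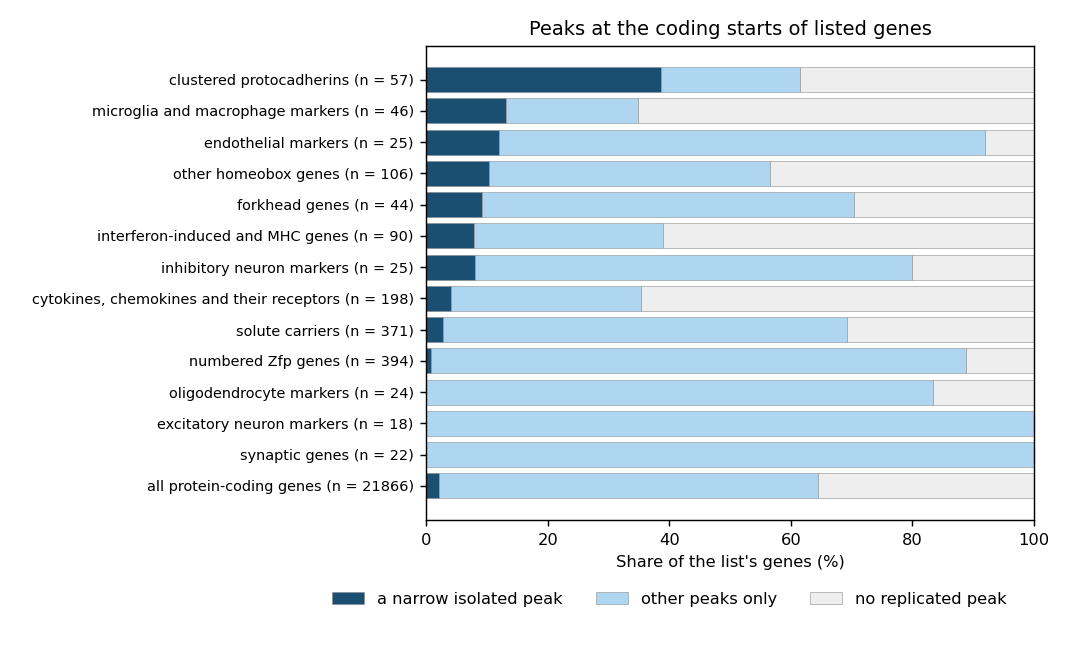
Share of the genes of each list (horizontal axis, percent) with a narrow isolated peak at a coding start, with other replicated peaks only, or with no replicated peak. Clustered protocadherins stood at 38.6%, microglia and macrophage markers at 13% and all coding genes at 2.00%. No excitatory neuron or synaptic gene had one, but the upper Wilson limits of these short lists (17.6% and 14.9%) lie above 2.00%.

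Clustered protocadherins, the cell surface proteins that give neurons their individual combinations of adhesion molecules, lie in the alpha, beta and gamma clusters, next to each other on chromosome 18. A narrow isolated peak stood at 22 of the 57 genes (38.6%), which are 62.9% of the 35 with any peak. Of all coding genes with any peak, 3.11% had a narrow isolated one. In the beta cluster 9 of 22 genes had one, and these 9 were all the promoter peaks there. In the gamma cluster 12 of 21 had one, and 19 had any promoter peak. In the alpha cluster it was 1 of 14, at Pcdha11, where there were 7 promoter peaks. Of the 443 promoter peaks of the chromosome, 35 (7.90%) were narrow and isolated, against 1.73% to 3.49% on the other chromosomes. The 35 include the 22 protocadherin peaks, so this share is not a separate finding.

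In 22 of 22 protocadherin peaks the highest point was downstream of the start, against 306 of the other 410 and 80.5% of all coding promoter peaks. Its median position was 179 bases downstream, against 116.5 in the other 410. The median was 159 in the wider isolated peaks and 156 in all coding promoter peaks. Pcdhb12 was 418 bases wide with an enrichment of 4.87 in the replicated list, 561 bases in the pool I list and met by no pool J peak. Pcdhgb7 had 433 bases and 4.77 in the replicated list, 617 bases in pool I and 423 in pool J. Pcdhga7 was 343 bases wide, with 295 in pool I and 707 in pool J. Over the 22, both pools met 4 (18.2%), pool I alone 8, pool J alone 1 and neither 9 (40.9%), while among the other 410 both pools met 36.6% and neither 26.6%. Their median CpG ratio was 0.545, and 0.316 in the beta cluster against 0.654 in the gamma cluster. Members of the beta cluster are alike in sequence, and 3 of its 9 peaks had another genomic copy.

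Genes of microglia and macrophages, the immune cells of the brain, had a narrow isolated peak at 6 of 46 (13%). These 6 are 37.5% of the 16 with any peak, where the share over all coding genes with any peak was 3.11%. They were Tmem119, a surface protein of microglia (198 bases), Cx3cr1, the fractalkine receptor (211 bases), Aif1, which encodes the calcium-binding protein Iba1 (300 bases), C1qb, a subunit of complement C1q (212 bases), Trem2, a lipid-sensing receptor (283 bases), and Plek, pleckstrin (222 bases). None was met by peaks of both pools. Aif1 (350 bases) and Plek (595 bases) were met by pool I alone and the other 4 by neither pool. Enrichment ran from 2.60 at Plek to 3.13 at Tmem119, Cx3cr1 and Aif1, and the CpG ratio from 0.127 at Aif1 to 0.388 at Tmem119. Plek also had a peak of 2418 bases with an enrichment of 20.7 at another coding start, while for the other 5 genes the narrow peak was the only one. Of the rest of the list, 10 had other peaks only and 30 none. In bulk tissue, few cells with the mark and little mark per cell cannot be told apart.

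Endothelial markers gave 3 of 25 (12%): Tie1 (322 bases, enrichment 3.10), Vwf, von Willebrand factor (482 bases, 2.93), and Erg, an ETS transcription factor (282 bases, 2.90). Tie1 and Vwf were met by pool I alone and Erg by neither pool. Erg also had a peak of 2765 bases with an enrichment of 4.82 at another coding start, and 20 of the other endothelial genes had other peaks only. Inhibitory neuron markers gave 2 of 25: Sst, somatostatin, had 217 bases in the replicated list and 396 in pool I with no pool J peak, and Tac1, the precursor of substance P, had 239 bases and was met by neither pool. Fgfr3 was the 1 of 18 astrocyte markers, Pax5 the 1 of 20 lymphocyte markers, Igf2 the 1 of 14 fibroblast and meningeal markers, and Apob the 1 of 23 genes of liver, muscle and other organs. Of these, Apob was met by both pools (367 bases in pool I, 197 in pool J).

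No narrow isolated peak stood at any of 24 oligodendrocyte, 13 oligodendrocyte precursor, 14 mural, 13 choroid plexus and ependymal, 12 erythroid and megakaryocyte, 19 activity-regulated, 15 housekeeping, 16 germline and pluripotency, 67 replication-dependent histone, 80 cytosolic ribosomal protein or 329 vomeronasal receptor genes. The share over all coding genes was 2.00%, and most of these lists are too short to be told from it. Apart from the vomeronasal receptors, their upper Wilson limits ran from 4.58% (cytosolic ribosomal protein) to 24.2% (erythroid and megakaryocyte). Only the limit of the vomeronasal receptor genes (1.15%) lay below 2.00%. All 19 activity-regulated and all 15 housekeeping genes had other peaks, and 328 of the vomeronasal receptor genes had none.

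A list of 106 genes from homeobox and paired-box families outside the Hox clusters, transcription factors that pattern the embryo, had 11 (10.4%), and 46 of the list had no peak. The list does not hold every such gene: Hesx1 (482 bases), Isl1 (279), Isl2 (398), Mnx1 (222) and Phox2a (388) had narrow isolated peaks and are not in it, and were named after their values were seen. Dlx4 (466 bases, 4.56), Six2 (469 bases, 4.15) and En1 (321 bases, 3.36) were met by both pools. Irx6 (357 bases, 4.05) and Gsx2 (497 bases, 3.74) were met by pool I alone. The CpG ratio was 0.965 at Pou4f2, 0.938 at Six2, 0.927 at Dlx4 and 0.884 at En1, each above the median of the wider isolated peaks. Hox genes had 2 of 39, among them Hoxa4 (336 bases), and 35 had no peak. Forkhead genes had 4 of 44: Foxi2 (238 bases) and Foxd4 (439 bases) were met by both pools, Foxa1 by pool J alone, and Foxe3 by neither.

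Interferon-induced and MHC genes had 7 of 90 (7.78%), and 5 of the 7 were met by both pools. Ifitm3, which encodes a membrane protein that limits virus entry, had 362 bases, with 365 in pool I and 361 in pool J. Ifit1 and Ifit1bl2 shared 1 peak of 458 bases with a CpG ratio of 0.106. H2-M5 had 376 bases, H2-Q10 472, Ifit3b 305 (pool J alone) and Ifi44l 324 (pool I alone). Cytokines, chemokines and their receptors had 8 of 198 (4.04%), led by Tnfrsf10b, a TRAIL receptor gene (enrichment 6.75), Tnfrsf13c, the BAFF receptor gene (4.77), Il11 (4.56) and Il12b (3.57). The first 3 of these were met by both pools.

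Solute carriers had 10 of 371 (2.70%), among them Slc6a2, the noradrenaline transporter gene (470 bases, with 483 in pool I and 427 in pool J), Slc2a4, the insulin-regulated glucose transporter gene (335 bases), Slc18a3, the vesicular acetylcholine transporter gene (300 bases), and Slc52a3, a riboflavin transporter gene (440 bases). G protein-coupled receptors named Gpr or Adgr had 5 of 100 (5%; Gpr101, Gpr143, Gpr146 and Gpr50 led them), potassium channels 3 of 94 (Kcna7, Kcnj5 and Kcna5), CD antigens 3 of 87 (Cd46, Cd59b and Cd96), collagens 3 of 45 (6.67%; Col14a1, Col9a3 and Col5a3) and cytochrome P450 genes 3 of 100 (Cyp4f16, Cyp4f15 and Cyp2j13). Wnt, Fgf and Bmp ligands had 3 of 52 (5.77%; Fgf8, Fgf1 and Wnt10b), serpins 2 of 61 (Serpina3n among them), keratins 2 of 110 (Krt87 and Krt77), oxidative phosphorylation genes 2 of 90 (Cox7a1 and Cox4i2), and Trem2 was the 1 gene (0.877%) among Toll-like, Fc and lectin-like receptors.

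The largest families were low as a share of all their genes, against 2.00% of all coding genes. Numbered Zfp genes had 3 of 394 (0.761%), at Zfp955a, Zfp991 and Zfp385c, while 347 had other peaks only. Olfactory receptors had 1 of 1134, Olfr1033, while 1132 had no peak. Genes with a placeholder name had 25 of 2011 (1.24%), led by Gm3164, Gm19345, 4930524B15Rik and Gm6685, while 1541 had no peak. Of the 470 with any peak, 5.32% had a narrow isolated one, against 3.11% of all coding genes with any peak.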

How the data were processed

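Left cerebral cortex H3K4me3 ChIP-seq was read from 4 peak lists of the mm10 build, per the labels. Lists were called on pool I, on pool J, on pooled reads and as a replicated list, per the text files deposited with the libraries. All but the replicated list are labelled pseudoreplicated peaks. What aligned the reads and called the peaks is not given in the sources used here. Each peak's enrichment is a ratio (fold) made by the authors and was used to describe and rank peaks of 1 list. The authors' −log10 q-value served as a description and a filter. The deposited score and 4 columns of p-values were not used. No read counts are given, so the depth per library is unknown.

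Coding starts came from GENCODE release M21 (58758 transcripts of 21866 genes), and sequence from GRCm38.p6. Peaks were intersected in Python 3.11.15 with numpy 2.4.6 and pandas 2.3.3, with a minimum overlap of 1 base and positions counted from 1. Copies were searched with minimap2 2.31-r1302. The code was tested on simulated data. Shares have 95% Wilson intervals. No test was run, since the members were chosen on measured values and each pool had 1 list. The members and the 43 gene lists were chosen with earlier results of these data known, and 3 of the lists after the members were seen. Genes named are those of the highest or lowest enrichment, width or CpG ratio, of each pool class, of those with another marked start, at the limits of the rule, and up to 4 of each list, with all microglial and endothelial members. Further interferon-induced, homeobox, neuropeptide and axoneme genes were named after their values were seen. The 7 printed sequences and the genes so marked were chosen after their values were seen. A few items are not reported here. Alternatives were other widths, windows, isolation distances, q filters, single pool lists and start sets.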

Additional observations from a re-analysis of the deposited data

How the results depend on the processing

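Of 60 alternatives to the settings, 41 left the value within its limits and 19 moved it. None has a direction to turn. The limits were 1.5-fold for the number of peaks and the 95% Wilson interval for the shares. For the median CpG ratio the limit was its SD over the 2 pool lists, 0.0081. The number of peaks (432) was 288 with the pool J list alone and 288 with the pool I list alone. Both lie at the 1.5-fold limit and were counted as within it. Keeping peaks whose −log10 q was 5 or more, the number of peaks was 239, and with a width under 400 bases 278. The share met by both pools (35.6%) was 80.9% when the rule was applied to the pool J list alone, 45.5% with the pool I list alone (a peak of one pool's own list is in that pool by construction, so these are the shares met by the other pool and are not comparable with 35.6%), 61.9% with the q filter, 21.6% under 400 bases and 46.8% under 600 bases. The share met by neither (27.3%) was 5.02% with the q filter, 38.8% under 400 bases and 20.4% under 600. The share with another marked start (22.0%) was 17.6% with the q filter and 36.4% with the starts of all transcripts of coding genes, an alternative chosen after seeing the data. The median CpG ratio (0.510) was 0.550 with the pool J list, 0.562 with the pool I list, 0.555 with the q filter, 0.526 under 600 bases, 0.553 with 5′-most starts only, 0.346 around the start and 0.500 with all transcripts. The cause was not tested. The share met by neither pool could not be had from a pool list, nor the share with another marked start from 5′-most starts. No paired analysis was possible because each pool had 1 peak list and no test was made. Depth and the filter behind each list are unknown, so a peak missing from a pool list cannot be told from one too shallow to call or filtered out.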

Other observations

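The 3 further lists were chosen after the narrow isolated peaks at coding promoters were seen, so their counts are descriptions only. Their shares cannot be compared with the 2.00% of all coding genes, since the lists were made with their members known. Neuropeptide genes had a narrow isolated peak at 6 of 37 (16.2%). Npw, neuropeptide W, had 425 bases in the replicated list, 463 in pool I and 441 in pool J, and Nmu, neuromedin U, had 486, 541 and 426. Sst was met by pool I alone, and Trh, Tac1 and Gal, the galanin gene, by neither pool. Cholinergic and monoamine transmitter genes had 3 of 12. The noradrenaline transporter gene Slc6a2 and the vesicular acetylcholine transporter gene Slc18a3 were met by both pools, and the choline transporter gene Slc5a7 (201 bases) by neither.

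Axoneme and motile cilium genes had 6 of 93 (6.45%), and 66 had other peaks only. Ccdc63, Spag16, Dnah10 and Spef2 were met by both pools, with enrichments of 9.26, 6.23, 5.79 and 4.46. Spag6 and Cfap97d2 were met by pool I alone.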
